A study of Arabidopsis thaliana with 54 samples.

Results

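The 40 Arabidopsis thaliana genes described here encode the enzymes and close regulators that make chlorophyll, heme and bilins from their common precursor, together with the enzymes that take chlorophyll apart. They are a list of gene identifiers drawn from pathway membership, with earlier results of these data known, out of the 33610 identifiers that every count file of the series listed. They fall into 5 branches, with 5 genes of 5-aminolevulinic acid (ALA) synthesis, 8 of the common trunk, 14 of the chlorophyll branch, 4 of the heme and bilin branch and 9 of chlorophyll breakdown. RNA sequencing was done on roots and rosettes of hydroponic plants of the spl7 mutant, which carries the T-DNA allele SALK_109908c, and of the wild type Col-0. SPL7 is the transcription factor that switches on the copper deficiency response in Arabidopsis.

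For 3 days the plants were given no iron, no copper, neither metal, or both. Iron was at 25 µM and copper at 0.5 µM where supplied. The mutant was set up for these 4 treatments with 2.5 µM copper in the medium before the treatment, while Col-0 had been kept at 0.1 µM. An additional mutant control had also been kept at 0.1 µM copper and had then received both metals. All plants had 25 µM iron before the treatment. This made 9 groups per organ with 3 libraries each, 54 in all. The comparisons within a genotype share its control libraries. The control of each genotype is the group that received both metals after that genotype's own copper level, unless the low-copper mutant control is named. Since the copper level before treatment differed, a difference between the responses of spl7 and Col-0 could lie with the genotype or with the earlier copper supply, and the study's groups do not allow these to be told apart.

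Tetrapyrroles are ring molecules built in plastids from glutamate. Glutamyl-tRNA reductase, encoded by HEMA genes, makes the committed step to ALA, and the trunk enzymes join ALA units into protoporphyrin IX. At that point magnesium chelatase sends the ring to chlorophyll and ferrochelatase sends it to heme, which is cut open to give the light-sensing bilin of phytochrome. The pathway uses iron several times over. Heme holds an iron atom, the cyclase subunit CRD1 carries a diiron centre, and the oxygenases CAO and PAO use iron-sulfur and mononuclear iron sites. Chlorophyll loss is a visible sign of iron deficiency in leaves. Breakdown starts with reduction of chlorophyll b by NYC1 and NOL and ends with colourless products stored in the vacuole.

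Library totals ran from 11694883 to 20061836 counts in rosettes and from 9254761 to 17277379 counts in roots. After the filter on low counts 39 of the 40 genes were tested in roots, where PORA was too low, and all 40 in rosettes. Levels are given as CPM, counts scaled to library totals corrected by TMM factors. These factors were set within each organ, so CPM values are comparable between libraries of 1 organ. SPL7 itself was lower in the mutant than in Col-0 in both organs, at group means of 10.4 to 16.3 against 24.3 to 30.0 CPM in rosettes and 24.2 to 26.2 against 61.8 to 72.5 CPM in roots. The 9 leaf markers summed to 21713 to 50194 CPM in rosettes and to 21.5 to 231 CPM in roots, and each of them had reads in both organs. Replicate 3 of the iron-free spl7 roots stood apart, with correlations of 0.943 and 0.945 to the other 2 libraries of its group over log2(CPM + 1) of all genes tested, against at least 0.980 for every other pair of replicates. Because all root libraries shared 1 estimate of spread, this library also bears on the other root comparisons. Among rosettes replicate 2 of the copper-free spl7 group correlated least with its group, at 0.980 and 0.981, against 0.988 between the other 2. Replicate 3 of that group had HEMA1 at 320 CPM where the other 2 had 593 and 603 CPM. The labels call the replicates biological but do not say that they came from separate containers, so the p-values measure the spread between these libraries. Bulk RNA does not show whether a lower value means fewer green cells or less RNA per cell.

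Promoter windows of 300 bases, from 250 bases before to 50 after each gene's annotated start, were read for the 40 genes from the RefSeq annotation of TAIR10.1 and searched on both strands for 5 short words that are known binding sites. The 5 windows printed here belong to the genes on which the rosette results turn, and all are on the minus strand of their chromosome, written 5′ to 3′ in the direction of transcription. They cover chr1:21626353-21626652 (HEMA1, AT1G58290), chr5:4392380-4392679 (CHLH, AT5G13630), chr4:7686957-7687256 (NYC1, AT4G13250), chr1:16851222-16851521 (CAO, AT1G44446) and chr3:21949747-21950046 (GUN4, AT3G59400). Capitals mark every match to one of the words.
HEMA1: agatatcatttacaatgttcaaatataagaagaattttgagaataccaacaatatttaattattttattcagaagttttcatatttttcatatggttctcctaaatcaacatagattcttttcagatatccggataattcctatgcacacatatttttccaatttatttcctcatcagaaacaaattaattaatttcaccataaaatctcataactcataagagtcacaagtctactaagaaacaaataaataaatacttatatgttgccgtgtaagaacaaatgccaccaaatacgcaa
CHLH: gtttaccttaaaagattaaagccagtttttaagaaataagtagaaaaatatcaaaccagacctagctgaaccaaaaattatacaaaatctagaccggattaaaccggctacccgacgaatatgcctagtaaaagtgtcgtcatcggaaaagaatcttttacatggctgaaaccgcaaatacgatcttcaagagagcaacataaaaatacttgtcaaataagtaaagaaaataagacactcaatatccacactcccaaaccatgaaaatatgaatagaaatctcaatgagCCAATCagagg
NYC1: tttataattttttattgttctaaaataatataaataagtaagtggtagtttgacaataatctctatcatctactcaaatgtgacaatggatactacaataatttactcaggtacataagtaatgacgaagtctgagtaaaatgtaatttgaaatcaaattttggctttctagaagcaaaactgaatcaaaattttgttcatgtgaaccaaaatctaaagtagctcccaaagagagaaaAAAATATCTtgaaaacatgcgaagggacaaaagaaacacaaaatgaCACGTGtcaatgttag
CAO: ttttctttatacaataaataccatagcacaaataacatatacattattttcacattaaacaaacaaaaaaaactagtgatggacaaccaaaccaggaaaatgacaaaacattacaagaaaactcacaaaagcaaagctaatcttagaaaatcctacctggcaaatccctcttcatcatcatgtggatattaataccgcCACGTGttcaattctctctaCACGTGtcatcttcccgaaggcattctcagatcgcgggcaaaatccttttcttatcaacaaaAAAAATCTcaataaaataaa
GUN4: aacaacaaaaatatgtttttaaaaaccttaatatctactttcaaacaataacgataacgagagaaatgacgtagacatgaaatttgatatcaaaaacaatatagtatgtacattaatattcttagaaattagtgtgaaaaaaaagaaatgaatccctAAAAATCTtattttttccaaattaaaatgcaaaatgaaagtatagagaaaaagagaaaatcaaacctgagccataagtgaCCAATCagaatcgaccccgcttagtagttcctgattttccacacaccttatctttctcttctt

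The G-box CACGTG, bound by factors such as the PIFs and HY5, was in the windows of 8 of the 40 genes (HEMD, CRD1, CAO, FC2, HY2, NYC1, NOL and SGR2) and in 7.68% of the windows of 27443 protein-coding genes. The word CCAATC, described for targets of the chloroplast regulators GLK1 and GLK2, was in 7 of 40 windows (GSA2, PPOX1, CHLH, GUN4, PORB, PORC and SGRL) and in 12.3% of all. The evening element AAAATATCT, bound by clock proteins, was in 3 of 40 (PORA, PORB and NYC1) and in 2.82% of all, and the CCA1-binding word AAAAATCT was in 6 of 40 (HEMA2, FLU, GUN4, CRD1, CAO and HY2) and in 7.88% of all. The FHY3 and FAR1 word CACGCGC was in 0 of 40 and in 1.34% of all. The CAO window held G-boxes 52 and 32 bases before the start and the CCA1-binding word from base 31 of the transcript. The NYC1 window held the evening element 12 bases before the start and a G-box from base 35. No member window was searched for other words, and a match is a description of letters and not of binding.

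In Col-0 control rosettes the highest levels per kilobase of exon were those of PORB, the main light-dependent protochlorophyllide reductase of green leaves, at 1334 ± 193 CPM per kb, and of the cyclase subunit CRD1, at 1293 ± 161 CPM per kb (SD, n = 3). Both were measured in the same libraries, and the difference between them was not tested. Geranylgeranyl reductase CHLP followed at 847 ± 87.5 CPM per kb, then the large magnesium chelatase subunit CHLH at 476 ± 23.4 CPM per kb, and the lowest was SGR2, a homologue of magnesium dechelatase, at 1.02 ± 0.21 CPM per kb. Within families 1 gene usually led. HEMA1 stood at 234 ± 27.5 and HEMA2 at 8.53 ± 1.60 CPM per kb, CHLI1 at 327 ± 38.7 and CHLI2 at 71.9 ± 6.52 CPM per kb, and PPOX1 at 94.4 ± 9.81 and PPOX2 at 9.41 ± 0.29 CPM per kb. No compared pair of paralogues shared an exact 50-base stretch of exon sequence, a check that does not cover shorter reads or mismatches. GUN4 is a separate case among the 40. Of its exon bases, 73% are also exons of AT3G59410 on the opposite strand. The strand setting of the counting is not given in the sources used here. The counts of GUN4 are therefore uncertain. Of the other 39 genes, 18 share exon bases with a neighbour, and the largest share is the 16.2% of CHLP.

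Many of these genes were lower in the spl7 rosette without iron. Of the 40 genes, 28 fell in iron-free spl7 rosettes relative to spl7 control rosettes, by edgeR's quasi-likelihood test at a Benjamini-Hochberg adjusted p below 0.05 over all 20015 genes tested, and the other 12 passed in neither direction. Across all genes tested, 14.8% fell and 12.6% rose. The fall took in 4 of 5 genes of ALA synthesis, 3 of 8 of the trunk, 12 of 14 of the chlorophyll branch, 2 of 4 of the heme and bilin branch and 7 of 9 of breakdown. Median log2 changes were −0.38, −0.23, −0.49, −0.21 and −0.45 in that order of branches, against 0.01 over all genes. The summed level of the 40 genes was 7395, 9212 and 9014 CPM in iron-free spl7 rosettes, against 13725, 14044 and 15649 CPM in spl7 controls. Most of each sum came from the chlorophyll branch, at 5402, 6810 and 6651 CPM against 10376, 10594 and 11890 CPM. Every iron-free library lay below every control. The size of the general shift depends on the scaling. With library totals in place of TMM factors the median change of all genes was 0.20, 0.19 above that with TMM, and 31.1% of all genes rose and 7.38% fell. Of the 40 genes 20 then fell and 2 rose (HEMF1 at 0.20 and PPOX2 at 0.22), while GSA2, FLU, HEME2, CHLI2, PORC, HO1, SGR1 and PPH were no longer called. HEMA1, NYC1, CHLH, CHLP, DVR, PAO and PORB were called under both.

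**Figure D1:**
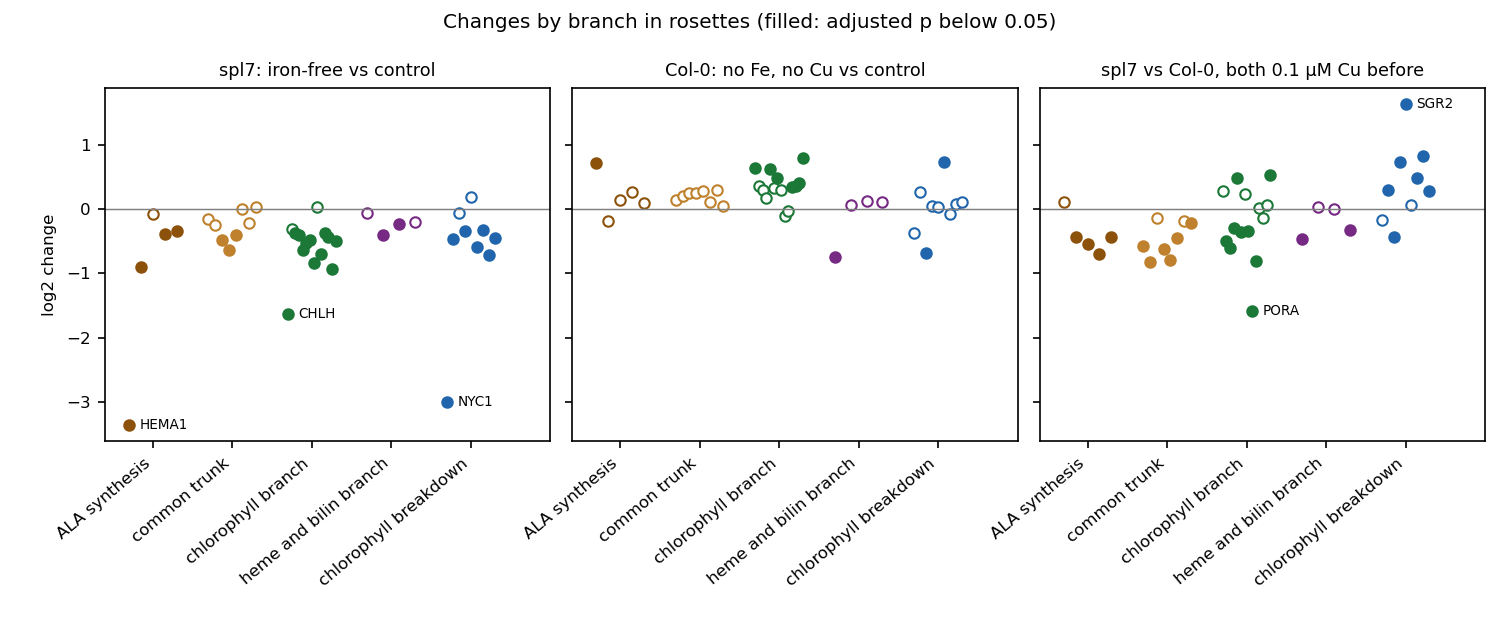
Log2 changes of the 40 genes by branch in rosettes, for iron-free spl7 against spl7 control, for Col-0 without both metals against Col-0 control, and for spl7 against Col-0 controls after the same copper supply; each point is a gene, filled where the adjusted p was below 0.05. HEMA1, NYC1 and CHLH lie far below the other genes in the iron-free mutant, and breakdown genes lie mostly above 0 in the genotype comparison.

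The largest fall was at the entry of the pathway. HEMA1, the main glutamyl-tRNA reductase of green tissue, had 46.0, 62.9 and 76.6 CPM in iron-free spl7 rosettes, against 582, 604 and 721 CPM in spl7 controls. The groups were far apart, and the log2 change was −3.36 ± 0.24 (SE), a 10.3-fold lower level (edgeR adjusted p = 3.51e-09). Its paralogue HEMA2, known from non-green tissue, had 8.18, 9.93 and 9.78 CPM in iron-free spl7 rosettes, against 16.5, 16.3 and 19.3 CPM in spl7 controls, with a log2 change of −0.90 ± 0.17. GSA2, an aminotransferase that completes ALA, and FLU, which holds back glutamyl-tRNA reductase, fell by 0.38 and 0.34 on the log2 scale. GSA1 gave −0.08 ± 0.09 and passed in neither direction. In the trunk the falls were those of HEMD (−0.47 ± 0.11), HEME1 (−0.64 ± 0.13) and HEME2 (−0.40 ± 0.12), which close and decarboxylate the ring, while HEMB1, HEMC, HEMF1, PPOX1 and PPOX2 did not pass the test.

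At the branch to chlorophyll, CHLH had 760, 997 and 911 CPM in iron-free spl7 rosettes, against 2676, 2559 and 3027 CPM in spl7 controls. All 3 iron-free libraries were far below all controls, and the log2 change was −1.63 ± 0.16 (edgeR adjusted p = 1.73e-07). The smaller chelatase subunits moved less. CHLI2 fell by 0.37 and CHLD by 0.40 on the log2 scale, while CHLI1 gave −0.30 ± 0.11 without passing. CHLP, which makes the phytyl tail, had 822, 1006 and 1010 CPM in iron-free spl7 rosettes, against 1676, 1758 and 1973 CPM in spl7 controls, a log2 change of −0.93 ± 0.11. The divinyl reductase DVR fell by 0.84, PORB by 0.69, GUN4, an activator of magnesium chelatase, by 0.64, the methyltransferase CHLM by 0.52, CAO, which turns chlorophyll a into b, by 0.50 and CRD1 by 0.48. PORA, the reductase of dark-grown seedlings, gave 0.03 ± 0.22 and passed in neither direction. On the other branch the ferrochelatase FC2 fell by 0.40 and the heme oxygenase HO1 by 0.23, while FC1 (−0.06 ± 0.17) and HY2, the bilin reductase (−0.19 ± 0.08), did not pass.

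Breakdown genes fell together with synthesis genes. NYC1, a chlorophyll b reductase, had 17.7, 25.6 and 31.4 CPM in iron-free spl7 rosettes, against 198, 194 and 206 CPM in spl7 controls. Its log2 change of −3.00 ± 0.26, 8-fold lower (edgeR adjusted p = 5.04e-08), was next in size to that of HEMA1. Its homologue NOL fell by 0.46 on the log2 scale. PAO, which opens the ring, had 68.0, 73.6 and 70.8 CPM in iron-free spl7 rosettes, against 136, 109 and 105 CPM in spl7 controls, and a log2 change of −0.72 ± 0.10. SGRL fell by 0.58, RCCR by 0.45, SGR1 by 0.35 and PPH by 0.33. HCAR, which finishes the conversion of chlorophyll b to a, and SGR2 gave −0.05 ± 0.11 and 0.18 ± 0.27 and did not pass. Left-out libraries reduced the 28 calls to between 22 and 27, and HEMA1, CHLH, NYC1, CHLP and PAO were called in all 6 such fits.

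**Figure D2:**
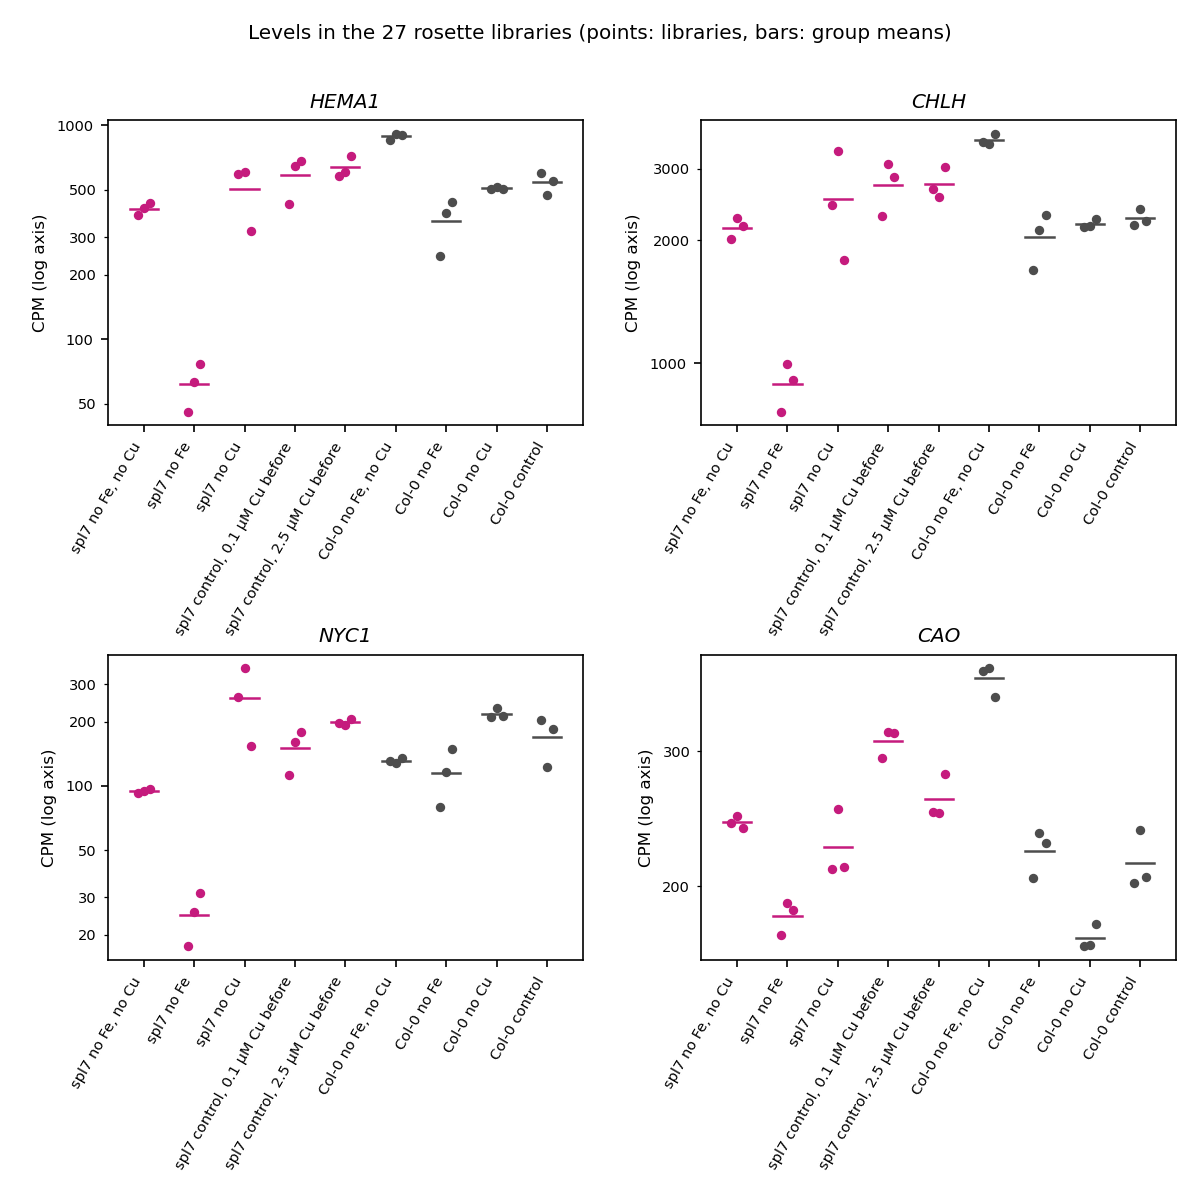
CPM of HEMA1, CHLH, NYC1 and CAO in each of the 27 rosette libraries on log axes, with spl7 groups to the left of Col-0 groups; points are libraries and bars are group means. Iron-free spl7 rosettes hold the lowest HEMA1, CHLH and NYC1 values of all groups, and Col-0 rosettes without both metals hold the highest HEMA1 and CAO values.

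Other genes moved in the same rosettes. All 9 leaf markers, genes of photosynthesis and the Calvin cycle, fell in iron-free spl7 rosettes with TMM scaling, with sums of 21713, 26916 and 25707 CPM, against 35338, 36268 and 40354 CPM in spl7 controls. Of 12 regulators of the pathway, 4 fell with TMM scaling, led by GNC (−0.62 ± 0.11) and GLK1 (−0.54 ± 0.10). Of 17 further genes of tetrapyrrole metabolism tested, 7 fell, led by HO4, a heme oxygenase (−1.69 ± 0.48), and UPM1, which takes uroporphyrinogen to siroheme (−0.74 ± 0.11). HO4 had low counts, with a mean of 0.633 CPM in Col-0 control rosettes on the scale of all 54 libraries. The part of these genes in the falls of the 40 was not tested.

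In Col-0 rosettes iron omission moved none of the 40 genes past the threshold. The edgeR test called 0 of 40, with 8 at an unadjusted p below 0.05, and DESeq2's Wald test called 1. Over all genes the test called 2.41%, of which 63.1% rose, or 81.4% with library totals only. HEMA1 had 244, 389 and 437 CPM in iron-free Col-0 rosettes, against 598, 472 and 550 CPM in Col-0 controls. The groups did not overlap, but the log2 change of −0.60 ± 0.21 did not pass (edgeR adjusted p = 0.160). NYC1 had 79.5, 116 and 149 CPM in iron-free Col-0 rosettes, against 203, 123 and 185 CPM in Col-0 controls, and these groups overlapped. Of the 11 clock genes CCA1 (0.66 ± 0.16) and RVE8 (0.87 ± 0.20) rose in the same rosettes, and their part was not tested.

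The difference between the genotypes in the iron response was tested as such. It was called for 9 of the 40 genes, all with the more negative change in spl7, where 5.06% of all genes were called in that direction and 3.4% in the other. Scaled by library totals only, 3.23% and 5.25% were, and 8 of the 9 genes were called, without PAO. The difference, spl7 minus Col-0, was −2.76 ± 0.31 for HEMA1, −2.43 ± 0.35 for NYC1 and −1.48 ± 0.22 for CHLH. It was −0.73 for SGRL, −0.67 for CHLP, −0.63 for DVR, −0.56 for CAO, −0.50 for GUN4 and −0.48 for PAO. HEMA1, NYC1, CHLH, CHLP, CAO and SGRL were called in all 12 fits that left out 1 library.

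Taking copper away as well as iron gave another picture in both genotypes. In Col-0 rosettes without both metals 9 of the 40 genes rose and 2 fell relative to Col-0 controls, where 3.96% of all genes rose and 3.81% fell. The counts for the 40 genes were also 9 and 2 with library totals only, where 2.51% of all genes rose and 6.25% fell. The genes that rose were HEMA1 and SGRL and 7 of the 14 chlorophyll branch genes, and the genes that fell were FC1 and HCAR. The 40 genes summed to 18147, 17976 and 18058 CPM in Col-0 rosettes without both metals, against 13665, 15442 and 13208 CPM in Col-0 controls. Here too most of each sum came from the chlorophyll branch. The groups did not overlap.

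CAO had the largest rise, with 382, 385 and 353 CPM in Col-0 rosettes without both metals, against 202, 237 and 206 CPM in Col-0 controls. Its log2 change was 0.80 ± 0.08 (edgeR adjusted p = 4.70e-07). SGRL, a magnesium dechelatase homologue expressed in green tissue, had 139, 146 and 136 CPM in Col-0 rosettes without both metals, against 77.7, 93.9 and 82.5 CPM in Col-0 controls, a log2 change of 0.73 ± 0.09. HEMA1 had 854, 911 and 902 CPM in Col-0 rosettes without both metals, against 598, 472 and 550 CPM in Col-0 controls. The HEMA1 groups were apart, with a log2 change of 0.72 ± 0.21, but the adjusted p of 0.0406 lay close to the threshold, and the call was lost in each of the 6 edgeR fits that left out 1 library. CHLH rose by 0.64 on the log2 scale, GUN4 by 0.62, CRD1 by 0.48, CHLP by 0.41, CHLG, which attaches the tail, by 0.36, and PORC by 0.34.

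Against that rise, HCAR had 18.6, 16.6 and 16.1 CPM in Col-0 rosettes without both metals, against 29.4, 28.4 and 24.8 CPM in Col-0 controls, a log2 change of −0.69 ± 0.11 (edgeR adjusted p = 0.000409). FC1 had 33.5, 32.5 and 35.8 CPM in Col-0 rosettes without both metals, against 78.5, 40.4 and 51.6 CPM in Col-0 controls. Its log2 change of −0.75 ± 0.17 rested on control replicate 1, without which the call was lost. Leaving out that control replicate reduced the 11 calls to 5. CAO, SGRL, GUN4, CRD1 and HCAR were called in all 6 such fits.

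In spl7 rosettes without both metals 3 of the 40 genes fell and the other 37 did not pass, where 1.21% of all genes fell and 0.899% rose. All 3 are breakdown genes. NYC1 had 92.5, 94.9 and 96.9 CPM in spl7 rosettes without both metals, against 198, 194 and 206 CPM in spl7 controls, a log2 change of −1.07 ± 0.24. SGR1 and PAO each fell by 0.49. These calls were fragile, since 0 to 2 of them were made when any 1 library was left out. HEMA1 had 381, 409 and 433 CPM in spl7 rosettes without both metals, below the 582 to 721 CPM of spl7 controls, with a log2 change of −0.64 ± 0.22 that did not pass (edgeR adjusted p = 0.132).

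The response to the loss of both metals differed between the genotypes for 8 of the 40 genes. The change was more negative in spl7 for 7 of them, where 4.42% of all genes were called in that direction, and more positive for 1, where 3.88% were. These counts were 8 and 1 with library totals only, where 3.4% and 5.41% of all genes were called. The difference was −1.36 ± 0.30 for HEMA1, −1.0 ± 0.22 for CHLH, −0.90 ± 0.11 for CAO and −0.90 ± 0.13 for SGRL. It was −0.64 for GUN4, −0.57 for PAO and −0.56 for CRD1, and 0.68 ± 0.16 for HCAR.

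**Figure D3:**
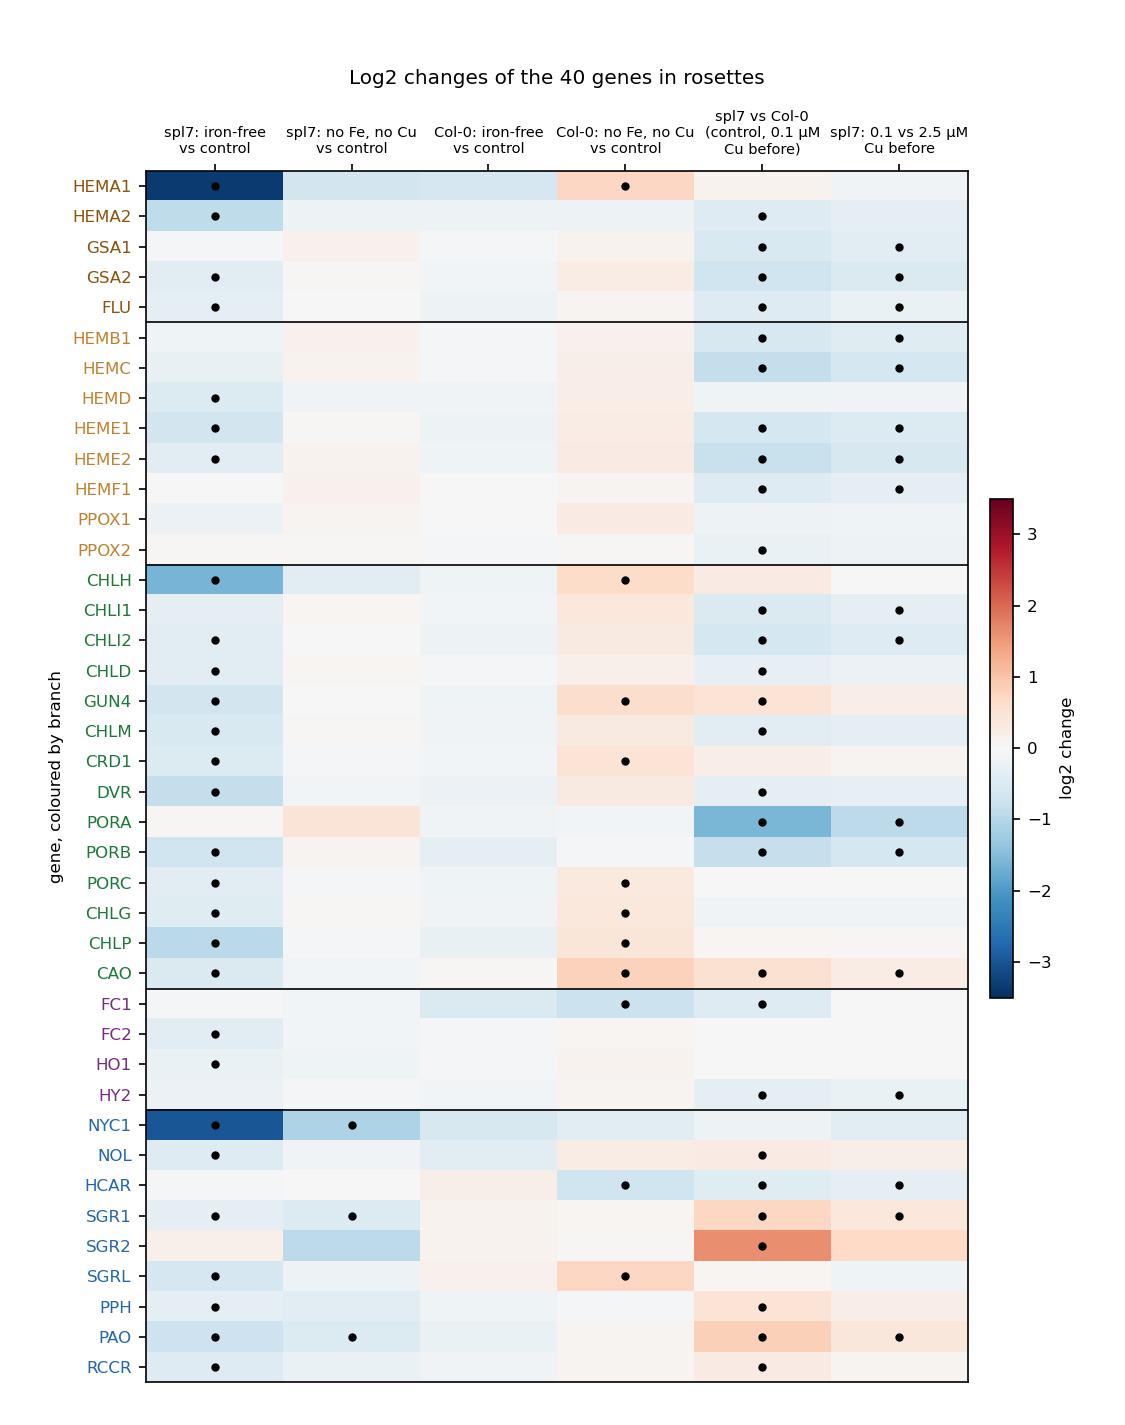
Log2 changes of the 40 genes in 6 rosette comparisons, coloured on 1 scale from blue (lower) to red (higher), with a dot where the adjusted p was below 0.05; rows are genes ordered and coloured by branch. The column of iron-free spl7 carries 28 dots, all on lower values, and that of iron-free Col-0 carries none.

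In Col-0 rosettes the effect of losing both metals was not the sum of the effects of losing each. The interaction, the change without both metals minus the changes without iron and without copper, was called higher for 8 of 40 genes and lower for 1, where 2.63% of all genes were called higher and 1.87% lower. Under library totals only, 7 were higher and 1 lower, without NOL, where 1.53% of all genes were higher and 7.87% lower. That scaling moved the median of all genes by −0.20. With TMM the interaction was 1.41 ± 0.30 for HEMA1, 1.07 ± 0.11 for CAO, 0.96 ± 0.13 for GUN4, 0.84 ± 0.22 for CHLH, 0.80 ± 0.16 for CHLP, 0.71 ± 0.14 for CRD1, 0.69 ± 0.13 for SGRL and 0.51 ± 0.14 for NOL. For HCAR it was −1.28 ± 0.16. CAO shows the pattern in its levels, with 382, 385 and 353 CPM without both metals, 205, 235 and 227 CPM without iron, 167, 168 and 179 CPM without copper and 202, 237 and 206 CPM in the control.

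Copper omission by itself moved few of the genes. In copper-free Col-0 rosettes edgeR called 0 of 40, with 5 at an unadjusted p below 0.05 and 1 called by DESeq2's Wald test, and 0.02% of all genes. In copper-free spl7 rosettes 1 of 40 was called, where 1.12% of all genes were, 62.2% of them higher. With library totals only 3 of 40 were, the others being GUN4 and CAO, and 47.6% of the genes called were higher. That gene was HCAR, which had 36.7, 52.2 and 36.8 CPM in copper-free spl7 rosettes, against 26, 25.7 and 26.1 CPM in spl7 controls. The highest value is that of replicate 2, which correlated least with its group. All 3 copper-free libraries were above all controls, and the log2 change was 0.69 ± 0.11 (edgeR adjusted p = 0.00169), called also without replicate 2. When only the compared groups were fitted 0 genes in all were called by edgeR, with 1718 at an unadjusted p below 0.05, and without copper-free replicate 3, the library with low HEMA1, 4 of the 40 genes were called. The difference between genotypes in the copper response was called for 0 of 40 genes, with 2 at an unadjusted p below 0.05 and 0 by DESeq2, and for 0.03% of all genes.

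Genes of the circadian clock changed beside these results. Of 11 clock genes, 10 were called in Col-0 rosettes without both metals, and they included the morning genes CCA1 (1.59 ± 0.16) and RVE8 (1.45 ± 0.19) and the evening genes ELF4 (−1.71 ± 0.17) and LUX (−1.31 ± 0.16). In copper-free spl7 rosettes 7 of 11 were called, and CCA1 (−0.83 ± 0.16), RVE8 (−1.13 ± 0.21) and ELF4 (1.38 ± 0.16) moved the other way. That comparison called 1.12% of all genes, and 0 genes in all when only the compared groups were fitted. CCA1 averaged 47.0 CPM in Col-0 rosettes without both metals, against 15.6 CPM in Col-0 controls. It averaged 17.3 CPM in copper-free spl7 rosettes, against 30.7 CPM in spl7 controls. Among the regulators, GLK2 (0.70 ± 0.08), GNC (0.66 ± 0.10) and PIF5 (0.39 ± 0.08) rose in Col-0 rosettes without both metals. Of the 9 leaf markers, 5 rose there, with sums of 47973, 50194 and 48039 CPM, against 35792, 40301 and 33638 CPM in Col-0 controls. The part of the clock, regulator and leaf marker genes in these changes was not tested.

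After low copper, many synthesis genes were lower and most breakdown genes higher in spl7 control rosettes than in Col-0 controls. Between controls that had the same low copper supply before treatment, 20 of the 40 genes were lower and 8 higher in spl7 rosettes, where 21.6% of all genes were lower and 20.6% higher. Lower were 4 of 5 genes of ALA synthesis, 6 of 8 of the trunk, 7 of 14 of the chlorophyll branch, 2 of 4 of the heme and bilin branch and 1 of 9 of breakdown. Higher were 6 of 9 breakdown genes and, in the chlorophyll branch, GUN4 and CAO. With library totals only, 20 genes were lower and 9 higher, with CRD1 (0.27) added. On that scale 18.5% of all genes were lower and 21.8% higher.

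PORA had 41.6, 44.8 and 23.7 CPM in low-copper spl7 control rosettes, against 109, 131 and 92.6 CPM in Col-0 controls. All 3 mutant libraries were below all Col-0 libraries, and the log2 difference was −1.59 ± 0.22 (edgeR adjusted p = 5.90e-06). Its homologue PORB had 1160, 1352 and 1251 CPM in low-copper spl7 controls, against 2087, 2545 and 1935 CPM in Col-0 controls, a log2 difference of −0.80 ± 0.13, while PORC gave 0.01 ± 0.10. HEMC, which links the 4 pyrroles of the ring, had 229, 247 and 240 CPM in low-copper spl7 controls, against 398, 467 and 404 CPM in Col-0 controls, a log2 difference of −0.82 ± 0.11. HEME2 (−0.79 ± 0.12), GSA2 (−0.71 ± 0.12), HEME1 (−0.62 ± 0.12), CHLI2 (−0.61 ± 0.12), HEMB1 (−0.57 ± 0.08) and GSA1 (−0.54 ± 0.09) were also lower in the mutant. HEMA1 and CHLH, which with NYC1 fell most without iron in the mutant, gave 0.12 ± 0.21 and 0.28 ± 0.16 here. Neither passed, nor did NYC1. HEMA2 and FC1 were called lower although their groups overlapped.

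Among breakdown genes SGR2 had 3.58, 4.51 and 4.45 CPM in low-copper spl7 controls, against 1.08, 1.30 and 1.62 CPM in Col-0 controls, a log2 difference of 1.63 ± 0.29. PAO had 151, 150 and 162 CPM in low-copper spl7 controls, against 92.9, 88.8 and 78.5 CPM in Col-0 controls, a log2 difference of 0.83 ± 0.10 (edgeR adjusted p = 1.25e-06). SGR1, the main senescence magnesium dechelatase, differed by 0.73 ± 0.12, PPH by 0.48 ± 0.11, NOL by 0.30 ± 0.10 and RCCR by 0.29 ± 0.09. HCAR went the other way, with 22.3, 19.9 and 18.9 CPM in low-copper spl7 controls, against 29.4, 28.4 and 24.8 CPM in Col-0 controls, a log2 difference of −0.43 ± 0.11. In the same comparison 10 of 11 clock genes were called, with CCA1 at 2.55 ± 0.16 and LUX at −1.51 ± 0.16, and 6 of 12 regulators were higher, led by CGA1 (1.28 ± 0.24) and PIF3 (0.88 ± 0.09). Of the 17 further genes of the pathway tested, 5 were lower, led by GLUTRBP, which binds glutamyl-tRNA reductase (−0.88 ± 0.11), and 5 higher, led by CYP89A9, which modifies chlorophyll catabolites (1.09 ± 0.14). The part of these genes was not tested.

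The copper supply before treatment was compared within the mutant. Low-copper spl7 control rosettes had 14 of the 40 genes lower and 3 higher than spl7 controls kept at 2.5 µM copper, where 12% of all genes were lower and 11.9% higher. This comparison shares the low-copper spl7 controls with the genotype comparison above. PORA had 41.6, 44.8 and 23.7 CPM in low-copper spl7 controls, against 49.2, 77.0 and 82.9 CPM in spl7 controls kept at 2.5 µM, a log2 difference of −0.92 ± 0.22. PORB (−0.63 ± 0.13), HEMC (−0.61 ± 0.11), HEME2 (−0.57 ± 0.12), GSA2 (−0.51 ± 0.12), HEME1 (−0.48 ± 0.12) and CHLI2 (−0.45 ± 0.12) were also lower. PAO (0.41 ± 0.10), SGR1 (0.36 ± 0.12) and CAO (0.25 ± 0.08) were higher, and the SGR1 groups overlapped. The 17 calls fell to 11 without replicate 3 of the spl7 controls kept at 2.5 µM. CCA1 was 1.57 ± 0.15 higher after low copper, and its part was not tested.

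Root levels were far lower. The 40 genes summed to 765 to 969 CPM across the 27 root libraries. In Col-0 controls 37 of the 40 genes were higher in rosettes than in roots and 1 was lower, where 37.1% of all genes were higher and 40.8% lower. This comparison used TMM factors set over all 54 libraries, and it depends on them. With library totals only the median of all genes was 0.45 lower, 35 of the 40 genes were higher in rosettes and 3 lower, and 25.9% of all genes were higher and 57% lower. With TMM the median log2 difference of rosettes over roots was 7.44 in the chlorophyll branch, 3.23 in breakdown, 3.22 in the trunk, 2.25 in ALA synthesis and 1.39 in the heme and bilin branch. HEMA2 was lower in rosettes under both scalings. On the scale of all 54 libraries it had 26.6, 18.4 and 21.7 CPM in rosettes, against 35.4, 39.6 and 35.1 CPM in roots, a log2 difference of −0.72 ± 0.14 with TMM and −1.17 with library totals only. FC1 (0.06 ± 0.14) and SGR2 (−0.35 ± 0.31) did not pass with TMM and were lower with library totals only, at −0.39 and −0.79. HO1 and PPOX2 were called higher with TMM, at 0.44 ± 0.11 and 0.34 ± 0.09, and gave −0.02 and −0.12 with library totals only, without a call, so no direction between organs is given for them. The ferrochelatases changed places within the organs, since FC1 stood at 27.6 ± 9.51 and FC2 at 51.3 ± 2.05 CPM per kb in rosettes, against 36.4 ± 5.12 for FC1 and 3.43 ± 0.33 CPM per kb for FC2 in roots. The gene with the highest level per kilobase in Col-0 control roots was HO1, at 92.5 ± 10.8 CPM per kb on the scale of the root libraries.

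In iron-free Col-0 roots 1 of the 39 genes tested rose and 3 fell, where 9.94% of all genes rose and 10.4% fell. HEMA1 had 60.2, 57.6 and 43.0 CPM in iron-free Col-0 roots, against 74.7, 96.1 and 82.5 CPM in Col-0 control roots, a log2 change of −0.66 ± 0.19 (edgeR adjusted p = 0.0197). CHLM had 22.6, 18 and 18.9 CPM in iron-free Col-0 roots, against 31.3, 31.2 and 29.8 CPM in Col-0 control roots, and fell by 0.63 on the log2 scale. RCCR fell by 0.35, a call lost with library totals only. NYC1 rose, with 46.5, 26.7 and 26.7 CPM in iron-free Col-0 roots, against 7.01, 20.5 and 9.61 CPM in Col-0 control roots. The NYC1 groups did not overlap, and the log2 change was 1.41 ± 0.39 (edgeR adjusted p = 0.0159), called in 4 of 7 fits that left out 1 library. The 4 calls fell to 1 without Col-0 control replicate 2 or iron-free replicate 3, to 2 without iron-free replicate 1 or 2, and came to 6 without replicate 3 of the iron-free spl7 roots. The organ difference in the iron response of Col-0, rosettes minus roots, was called for 1 of the 40 genes, NYC1, at −1.93 ± 0.47, where 3.96% of all genes were called, 64.8% of them higher. CAO was called too with library totals only, at 0.78, and 76.2% of the genes called were higher.

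**Figure D4:**
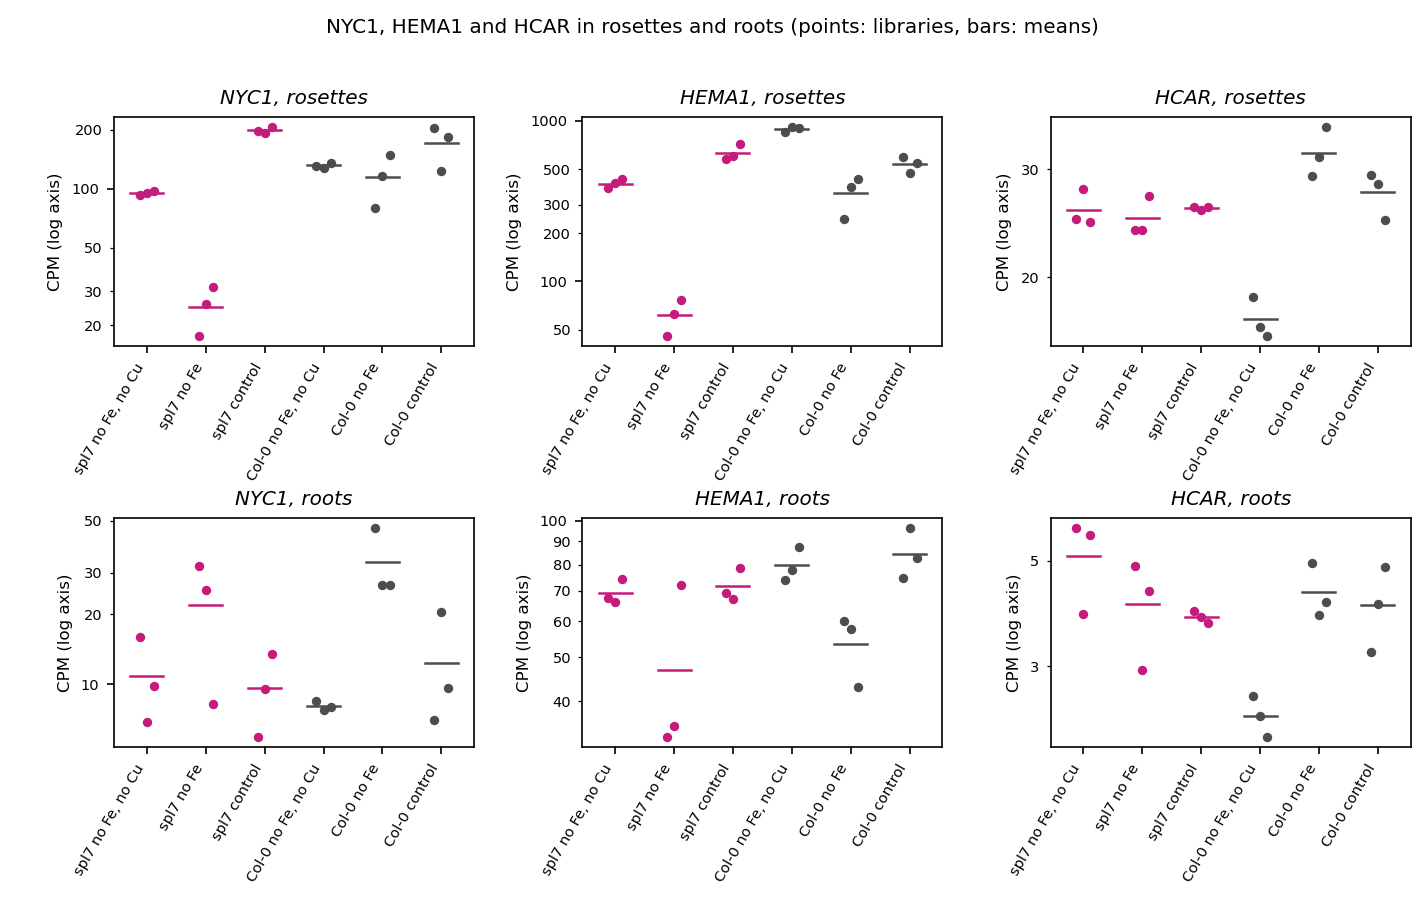
CPM of NYC1, HEMA1 and HCAR in rosettes (top) and roots (bottom) on log axes, with spl7 groups to the left of Col-0 groups; points are libraries and bars are means. Among the plotted rosette groups NYC1 is lowest in iron-free spl7, among the plotted root groups its highest mean is that of iron-free Col-0, and among the plotted groups HCAR is lowest in Col-0 without both metals in both organs.

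In iron-free spl7 roots 3 of 39 genes rose and 2 fell relative to spl7 control roots, where 8.34% of all genes rose and 4.78% fell. CRD1 had 9.70, 6.23 and 4.65 CPM in iron-free spl7 roots, against 1.28, 1.24 and 3.10 CPM in spl7 control roots, a log2 change of 1.88 ± 0.40. CHLG rose by 1.74 ± 0.52 and CHLP by 0.78 ± 0.22 on the log2 scale, and FC2 fell by 0.50. The level of CHLG in roots was near the floor. In Col-0 control roots CHLG had 0.627, 0.629 and 0.196 CPM on the scale of all 54 libraries. HEMA1 had 33.4, 35.2 and 72.1 CPM in iron-free spl7 roots, against 69.1, 67.1 and 78.6 CPM in spl7 control roots. The iron-free library that overlapped the controls was replicate 3, which stood apart from its group, and the log2 change was −0.62 ± 0.19.

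Without that replicate 19 of 39 genes were called, 8 higher and 11 lower, in a fit where 18.9% of all genes rose and 20.8% fell. HEMA1 was then at −1.07, CHLM at −0.99, FC2 at −0.51, FLU at −0.43 and CHLD at −0.41. CRD1 was at 2.08, CHLG at 1.95, GUN4 at 1.72, NYC1 at 1.57, PORB at 1.32, CHLH at 1.28, CHLP at 0.90 and FC1 at 0.29. NYC1 had 32.2, 25.2 and 8.24 CPM in iron-free spl7 roots, against 5.99, 9.57 and 13.4 CPM in spl7 control roots, and with all 3 libraries its change of 1.19 ± 0.41 did not pass (edgeR adjusted p = 0.0542). The count was 1 without iron-free replicate 1, 2 without iron-free replicate 2 or control replicate 1, and 3 without control replicate 2. When only the compared groups were fitted, edgeR called 0 of 39 genes and 0 genes in all, with 2621 at an unadjusted p below 0.05. DESeq2 called 8 of 39 in the full design and 2999 genes in all.

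Levels of the leaf markers varied among root libraries. The 9 leaf markers summed to 64.8, 46.8 and 79.2 CPM in iron-free spl7 roots, against 21.5, 26.4 and 68.4 CPM in spl7 control roots. CRD1 per 100 CPM of leaf markers was 15, 13.3 and 5.87 in iron-free spl7 roots, against 5.96, 4.72 and 4.53 in spl7 control roots, and ranged from 4.87 to 7.24 over the 27 rosette libraries. The ratio was above the highest rosette value in 13 of the 27 root libraries, 11 of them from other groups, such as 11.1 and 11.7 in 2 libraries of spl7 roots without both metals. The trunk gene HEMB1 gave 0.352 to 0.613 on the same scale in rosettes and 24.9 to 224 in roots. Whether the leaf marker reads in roots came from leaf material, and their part in the root changes, was not tested.

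The genotype difference in the iron response of roots was called higher for 5 of 39 genes and lower for 1, where 4.05% of all genes were called higher and 2.97% lower. It was 2.66 ± 0.54 for CRD1, 2.09 ± 0.57 for PORB, 1.90 ± 0.57 for CHLH, 1.18 ± 0.32 for CHLP, 0.58 ± 0.17 for RCCR and −0.58 ± 0.17 for FC2. Leaf markers summed to 50.3, 37.5 and 34.9 CPM in iron-free Col-0 roots, against 107, 90.0 and 62.4 CPM in Col-0 control roots, and 1 of 9, SBPASE, was called lower there. In the test of the genotype difference edgeR called 0 of the 9, with 8 at an unadjusted p below 0.05. RCCR was not called with library totals only. Without replicate 3 of the iron-free spl7 roots 8 of 39 genes were called, and CRD1 was at 2.86 and PORB at 2.35. The count was 1 or 2 without any of iron-free spl7 replicate 1, spl7 control replicates 1 and 2, iron-free Col-0 replicates 2 and 3 and Col-0 control replicates 1 and 2. Leaving out replicate 3 of the iron-free spl7 roots changes the spread shared by all root genes. The share of all genes called without it is not given here, nor in the root comparisons below.

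**Figure D5:**
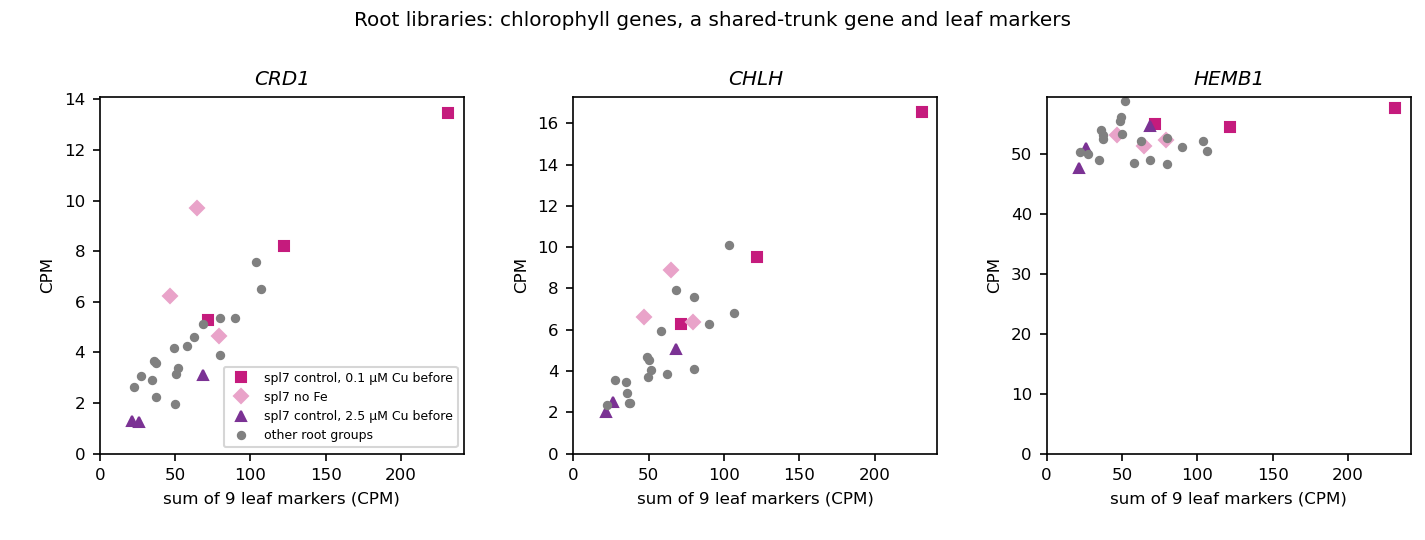
CPM of CRD1, CHLH and HEMB1 (vertical axes) against the summed CPM of 9 leaf markers (horizontal axes) in the 27 root libraries, each point a library. CRD1 and CHLH are highest in the low-copper spl7 control library with 231 CPM of leaf markers, HEMB1 stays between 47.7 and 58.9 CPM, and CRD1 varies among libraries with similar leaf marker sums.

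Low-copper spl7 control roots had 4 genes higher and 1 lower than spl7 control roots kept at 2.5 µM copper, where 2.97% of all genes were higher and 1.39% lower. CRD1 had 13.5, 8.20 and 5.27 CPM in low-copper spl7 control roots, against 1.28, 1.24 and 3.10 CPM in those kept at 2.5 µM, a log2 difference of 2.26 ± 0.39. GUN4 differed by 2.24 ± 0.59, CHLH by 1.76 ± 0.40 and CAO by 1.19 ± 0.27. Leaf markers summed to 231, 122 and 71.8 CPM in the low-copper roots, against 21.5, 26.4 and 68.4 CPM in those kept at 2.5 µM, with 7 of 9 called higher. CRD1 per 100 CPM of leaf markers was 5.83, 6.72 and 7.34 in the low-copper roots, against 5.96, 4.72 and 4.53 in those kept at 2.5 µM. All 3 low-copper CRD1 values were within or just above the range found in rosettes. The CRD1 values at 2.5 µM were within or just below it. On the same scale CHLH was 7.15 to 8.75 in the low-copper roots and 7.40 to 9.44 in those kept at 2.5 µM. In rosettes CHLH was at most 8.61. CHLP was 7.72, 13.1 and 14.1 in the low-copper roots, against 32.1, 29.2 and 16.3 in those kept at 2.5 µM. All of these CHLP values were above the rosette maximum of 5.59. CHLG was 0.563, 1.01 and 1.08 in the low-copper roots, all above the rosette maximum of 0.472. At 2.5 µM CHLG was 2.32, 0.295 and 0.773. The part of leaf marker reads in these differences was not tested. Without replicate 1 of the spl7 controls kept at 2.5 µM, 1 gene was called. Without their replicate 2 or low-copper replicate 1, 2 were called, and without replicate 3 of the iron-free spl7 roots, 8 were.

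HCAR was called in 4 root comparisons. It had 2.60, 2.36 and 2.14 CPM in Col-0 roots without both metals, against 3.21, 4.06 and 4.84 CPM in Col-0 control roots, a log2 change of −0.77 ± 0.21 (edgeR adjusted p = 0.0410) that was called in 2 of 7 fits leaving out 1 library. It was the only gene of 39 called in that comparison, where 4.69% of all genes were called. HCAR had 2.22, 2.01 and 1.78 CPM in low-copper spl7 control roots, lower by 1.01 on the log2 scale than the 3.21 to 4.84 CPM of Col-0 controls. In that genotype comparison 1 other gene was called, GSA2 at 0.38 ± 0.11, and 6.5% of all genes were lower and 6.77% higher, or 5.14% and 8.62% with library totals only. Without replicate 3 of the iron-free spl7 roots 6 genes were called there. Against spl7 roots kept at 2.5 µM, at 3.92, 3.81 and 3.70 CPM, low-copper spl7 roots gave −0.92 ± 0.22 for HCAR. The genotype difference in the response to the loss of both metals was called in roots for HCAR alone, at 1.2 ± 0.29, where 1.48% of all genes were called. That call was lost with library totals only and was made in 3 of 13 fits that left out 1 library. At these levels HCAR rested on few reads, and its behaviour in roots was measured with less precision than in rosettes.

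The other root comparisons called few or none of the 39 genes. The interaction of iron and copper in Col-0 roots was called for CAO at 1.74 ± 0.40, where 2.89% of all genes were called, and for 7 genes without replicate 3 of the iron-free spl7 roots. Copper omission called 0 of 39 in Col-0 roots by edgeR, with 3 at an unadjusted p below 0.05 and 0 by DESeq2, where 0.0733% of all genes were called. In spl7 roots it called 0 of 39, with 4 unadjusted and 0 by DESeq2, where 0.21% of all genes were called. Loss of both metals called 0 of 39 in spl7 roots, with 4 unadjusted and 0 by DESeq2, where 0.855% of all genes were called. The genotype difference in the copper response called 0 of 39, with 5 unadjusted and 0 by DESeq2, where 0.044% of all genes were called.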

How the data were processed

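Reads were mapped with Bowtie and counted with HTSeq against TAIR10, per the submitters' processing notes, which give no versions or strand setting. The deposited files hold whole-number counts per gene for each library. From these, CPM values were computed by scaling each count to its library total times the TMM factor, with factors set within each organ. Differences were tested with edgeR 4.0.16 (quasi-likelihood, TMM scaling, filterByExpr with a minimum count of 10) in R 4.3.3, over 27 libraries per organ, or all 54 for organ comparisons, with Benjamini-Hochberg adjustment over all genes tested and a threshold of 0.05. DESeq2 1.42.0 gave an alternative. Scaling by library totals only was added after seeing the data. Standard errors are the log2 change over the root of its F statistic. The scripts were tested on simulated data. Promoters and exon lengths came from RefSeq's TAIR10.1, matched by gene identifier. The 40 genes and the other lists were chosen with earlier results of these data known. Any of the 40 could be named, with the largest changes among those called first and library values for up to 6 per comparison and for families. Other genes came from the lists. Replicate numbers did not pair the libraries.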

Additional observations from a re-analysis of the deposited data

Results flagged for a closer look

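Each result in these paragraphs is a difference between the responses of 2 groups to the same treatment that passed edgeR's quasi-likelihood test of the difference itself, on the log2 scale with its SE. The library values of the leading genes are given above. The values are the spl7 change minus the Col-0 change, except for the organ difference.

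The response of rosettes to iron omission differed for HEMA1 by −2.76 ± 0.31, NYC1 by −2.43 ± 0.35, CHLH by −1.48 ± 0.22, SGRL by −0.73 ± 0.13, CHLP by −0.67 ± 0.16, DVR by −0.63 ± 0.18, CAO by −0.56 ± 0.11, GUN4 by −0.50 ± 0.13 and PAO by −0.48 ± 0.15. DVR was called in 4 and PAO in 5 of 12 fits that left out 1 library.

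The response of rosettes to the loss of both metals differed for HEMA1 by −1.36 ± 0.30, CHLH by −1.0 ± 0.22, CAO by −0.90 ± 0.11, SGRL by −0.90 ± 0.13, GUN4 by −0.64 ± 0.13, PAO by −0.57 ± 0.15, CRD1 by −0.56 ± 0.14 and HCAR by 0.68 ± 0.16.

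In roots the iron response differed for CRD1 by 2.66 ± 0.54, PORB by 2.09 ± 0.57, CHLH by 1.90 ± 0.57, CHLP by 1.18 ± 0.32, RCCR by 0.58 ± 0.17 and FC2 by −0.58 ± 0.17. The response to the loss of both metals differed for HCAR by 1.2 ± 0.29. Between organs of Col-0 the iron response of NYC1 differed by −1.93 ± 0.47, rosettes minus roots. The copper supply before treatment differed between the genotypes in all of these except the organ difference, and its part cannot be told apart from that of the genotype.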

How the results depend on the processing

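Of the 178 changes called for single genes, 178 kept direction and call with DESeq2 size factors, 175 with DESeq2's Wald test, 171 without the filter on low counts, 175 with the replicate block, 160 with library totals only, an alternative chosen after seeing the data, and 161 of 177 with only the compared groups fitted, and 1062 of 1292 fits that left out 1 library kept them, with 0 reversed. The organ differences of PPOX2 (−0.12) and HO1 (−0.02) changed sign with library totals and were not called. Same-numbered libraries were no more alike than others (mean correlation of deviations −0.009 in roots and 0.003 in rosettes), so the block is not a pairing; it moved no count of called members by over 1.5 times. Counts of called genes moved as follows; the cause was not tested. With the Wald test they were 8 for iron in spl7 roots (5 in the main analysis), 3 for the interaction in roots (1), 1 each for copper and for iron in Col-0 rosettes (0) and 2 for the organ difference (1). With only the compared groups they were 0 for iron in spl7 roots (5), 1 for the genotype difference in the root iron response (6), 7 for the root interaction (1), 0 for copper in spl7 rosettes (1), 7 for both metals in spl7 rosettes (3), 13 for the genotype difference in that response (8) and 2 for the organ difference (1). In these fits for iron in spl7 roots and for copper in spl7 rosettes, 0 genes in all were called. Without the filter they were 0 for both metals in Col-0 roots and for the genotype difference in that response (1 each). With library totals only they were 0 for the genotype difference in the root response to the loss of both metals (1), 3 for copper in spl7 rosettes (1) and 2 for the organ difference (1). Leaving out 1 library at a time gave, in roots, 0 to 1 for copper, 1 to 6 for iron and 0 to 1 for both metals in Col-0, 0 for copper, 1 to 19 for iron and 0 for both metals in spl7, 1 to 6 for genotype, 1 to 8 for copper supply before treatment, 0, 1 to 8 and 0 to 1 for the genotype differences in the copper, iron and combined responses, and 0 to 7 for the interaction. In rosettes it gave 0, 0 to 1 and 5 to 13 in Col-0, 1 to 4, 22 to 27 and 0 to 2 in spl7, 23 to 27 for genotype, 11 to 15 for copper supply, 0, 6 to 11 and 8 to 11 for the genotype differences, and 7 to 10 for the interaction. The organ comparison gave 38 and the organ difference 1 to 2. The root maxima of 6 to 19 came without replicate 3 of the iron-free spl7 roots, a library that bears on the spread of all root genes. In rosettes 13 came without Col-0 control replicate 2 and 4 without replicate 3 of the copper-free spl7 group. Chlorophyll branch genes in roots rested on few reads, which limits their precision.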

Other observations

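Genes of leaf senescence, a state in which chlorophyll is broken down, were also followed. Of 9 such genes, 4 fell in iron-free spl7 rosettes, namely the transcription factor genes NAP (−2.56 ± 0.31), ANAC019 (−1.10 ± 0.36) and ORE1 (−1.09 ± 0.34) and the dark-inducible gene SEN1 (−0.93 ± 0.28). NAP had 2.44, 3.05 and 2.63 CPM in iron-free spl7 rosettes, against 17.8, 14.4 and 15.7 CPM in spl7 controls, and the groups were far apart. In iron-free Col-0 rosettes NAP (−2.01 ± 0.33) and SEN1 (−1.14 ± 0.26) fell as well, although none of the 40 tetrapyrrole genes was called there by edgeR, with 8 at an unadjusted p below 0.05 and 1 called by DESeq2. In low-copper spl7 controls, where 6 of 9 breakdown genes were higher than in Col-0 controls, SAG13 (2.71 ± 0.53), ANAC019 (1.62 ± 0.36), NAP (0.90 ± 0.27) and ORE1 (0.86 ± 0.33) were higher and SEN1 (−1.48 ± 0.27) and WRKY53 (−1.44 ± 0.48) were lower. In Col-0 rosettes without both metals 1 of the 9, WRKY53, fell (−2.44 ± 0.52).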
